A study of Mus musculus with 27 samples.

Results

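The genes that break down tryptophan along the kynurenine pathway, and those that make, take up and degrade serotonin, were followed in the ileum of male mice given TCDD, a dioxin that binds the aryl hydrocarbon receptor (AhR). The 9 members are *Ido1*, *Tdo2*, *Afmid*, *Kmo* and *Kynu* of the kynurenine pathway and *Tph1*, *Slc6a4*, *Maoa* and *Maob* of serotonin metabolism. They were chosen by name with earlier results of these data known, as were the other gene lists used below. Their rows were found by Ensembl gene identifier, 9 of the 46078 genes listed. Shares of all genes are given beside counts of members or list genes for scale, and no list was tested against them. RNA-Seq was performed on epithelium scraped from the distal ileum of 27 male C57BL/6 mice at postnatal day 56, with no genetic modification in any group. Mice were orally gavaged every 4 d for 28 d with sesame oil alone (vehicle, 3 mice) or with TCDD in it at 0.01 or 0.03, at 0.1 or 0.3, at 1 or 3, or at 10 or 30 µg/kg (3 mice per dose). Scrapings hold all cell types of the mucosa, and in such bulk samples more cells of a type and more RNA per cell cannot be told apart.

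Tryptophan has several fates in the gut. IDO1, or TDO2 mainly in the liver, opens the indole ring to give N-formylkynurenine, which AFMID converts to kynurenine, a metabolite that is itself an AhR ligand. KMO hydroxylates kynurenine and KYNU cleaves it further on the way to NAD. In the other branch, TPH1 performs the rate-limiting step of serotonin synthesis in enterochromaffin cells, a class of enteroendocrine cell that makes most of the body's serotonin. Enterocytes take the released serotonin up through the transporter SERT, encoded by *Slc6a4*, and the mitochondrial monoamine oxidases MAOA and MAOB deaminate it and other amines.

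Between 12.26 and 17.14 M reads per mouse (median 14.14 M) were counted on genes. Expression is given as CPM, reads per 1 M reads of the TMM-scaled library, and each dose was compared with vehicle by edgeR's quasi-likelihood test over the 16741 genes that passed a filter on low counts. A gene was called induced or repressed at an adjusted p of at most 0.05 (Benjamini-Hochberg over all genes tested at that dose) and a change of at least 1.5-fold. *Cyp1a1*, the classic AhR target, ranged from 0 to 0.211 CPM without TCDD, from 3.32 to 6.30 CPM after 1 µg/kg and from 1061.5 to 2279.3 CPM after 30 µg/kg, rising with the labelled dose from 1 µg/kg. Enterocyte markers were abundant in every mouse, with a summed level of 7 genes between 6504.7 and 13991.8 CPM, whereas 4 hepatocyte markers summed to at most 3.44 CPM and 6 markers of enteric neurons and glia to at most 4.16 CPM. Smooth muscle markers were present and uneven, with a sum of 5 genes between 22.3 and 376 CPM, and 4 pancreatic acinar markers summed to at most 26.3 CPM. The library indexes given in the deposited file names repeat among the mice. Numbered in the order of listing, which follows dose, the first use covers 16 mice (all groups up to 0.3 µg/kg, and mouse 41 at 1 µg/kg). The second use covers the remaining 11. Whether the 2 uses were separate pools or runs is not stated. Outside the 1 µg/kg group, and outside comparisons within 1 use, an effect of index use cannot be told apart from that of dose. Mouse 65 at 30 µg/kg stood apart from mice 67 and 68 over all genes, with chi-square over degrees of freedom of 83.08 and 50.84, where other pairs of mice given the same dose reached at most 25.08.

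Expression was higher than in vehicle mice for 5 of the 8 members tested at 30 µg/kg, and 0 were repressed. *Slc6a4* (2.31-fold), *Maob* (2.54-fold), *Tph1* (2.02-fold), *Afmid* (1.91-fold) and *Maoa* (1.62-fold) passed both limits at 30 µg/kg, where 5.42% of all genes tested were called higher and 3.98% lower. The 5 remained called with mouse 65 left out. At 10 µg/kg and at 1 µg/kg only *Slc6a4* passed by edgeR, beside 1.76% and 0.4% of all genes called higher, and at 3 µg/kg *Slc6a4* and *Maoa* did, beside 0.645%. The shares of all genes called lower at 1, 3 and 10 µg/kg were 0.191%, 0.46% and 0.771%, with 0 members among them. Between 3 and 30 µg/kg edgeR and DESeq2 called 0 members (2 at an unadjusted p under 0.05 by edgeR, *Afmid* and *Slc6a4*), beside 0.645% of all genes called higher and 0.245% lower. The median log2 fold change of the 8 members was 0.34, 0.55, 0.58 and 0.82 at 1, 3, 10 and 30 µg/kg, against 0.02 or less in absolute value over all genes. At 0.01, 0.03, 0.1 and 0.3 µg/kg edgeR and DESeq2 each called 0 members and edgeR called 0 of all genes. At an unadjusted p under 0.05, 1 member stood out at each of these doses, *Tph1* (lower) at 0.03 µg/kg and *Slc6a4* (higher) at the other 3.

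**Figure D1:**
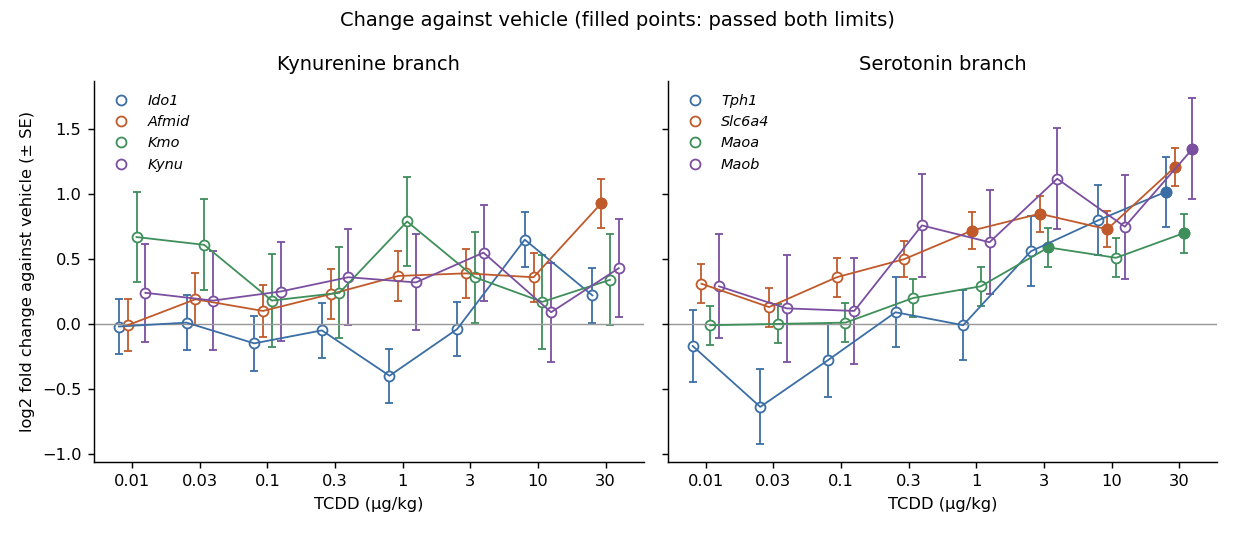
Log2 fold change against vehicle (y axis, ± SE from edgeR) at each TCDD dose (x axis, µg/kg) for 4 kynurenine pathway genes (left) and 4 serotonin genes (right), with filled points where both limits were passed. *Slc6a4* is filled from 1 to 30 µg/kg, *Maoa* at 3 and 30 µg/kg, and *Tph1*, *Maob* and *Afmid* at 30 µg/kg alone, while *Ido1*, *Kmo* and *Kynu* are never filled.

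Counting how many members had all 3 treated mice above all 3 vehicle mice gave a like picture. There were 0 such members at 0.01, 0.03 and 0.1 µg/kg (5.63%, 4.49% and 7.01% of all genes), 1 at 0.3 µg/kg (8.06%), 3 at 1 µg/kg (10.3%), 4 at 3 µg/kg (12.4%), 4 at 10 µg/kg (11.5%) and 6 at 30 µg/kg (13.7%). A slope over the rank of the dose, tested in all 27 mice, was upward and passed for *Slc6a4*, *Tph1*, *Maob*, *Maoa* and *Afmid* (5 of 8, where 13.4% of all genes had a called upward slope). Any difference among the 9 groups was called for *Slc6a4*, *Tph1*, *Maoa*, *Afmid* and *Ido1* (9.53% of all genes).

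**Figure D2:**
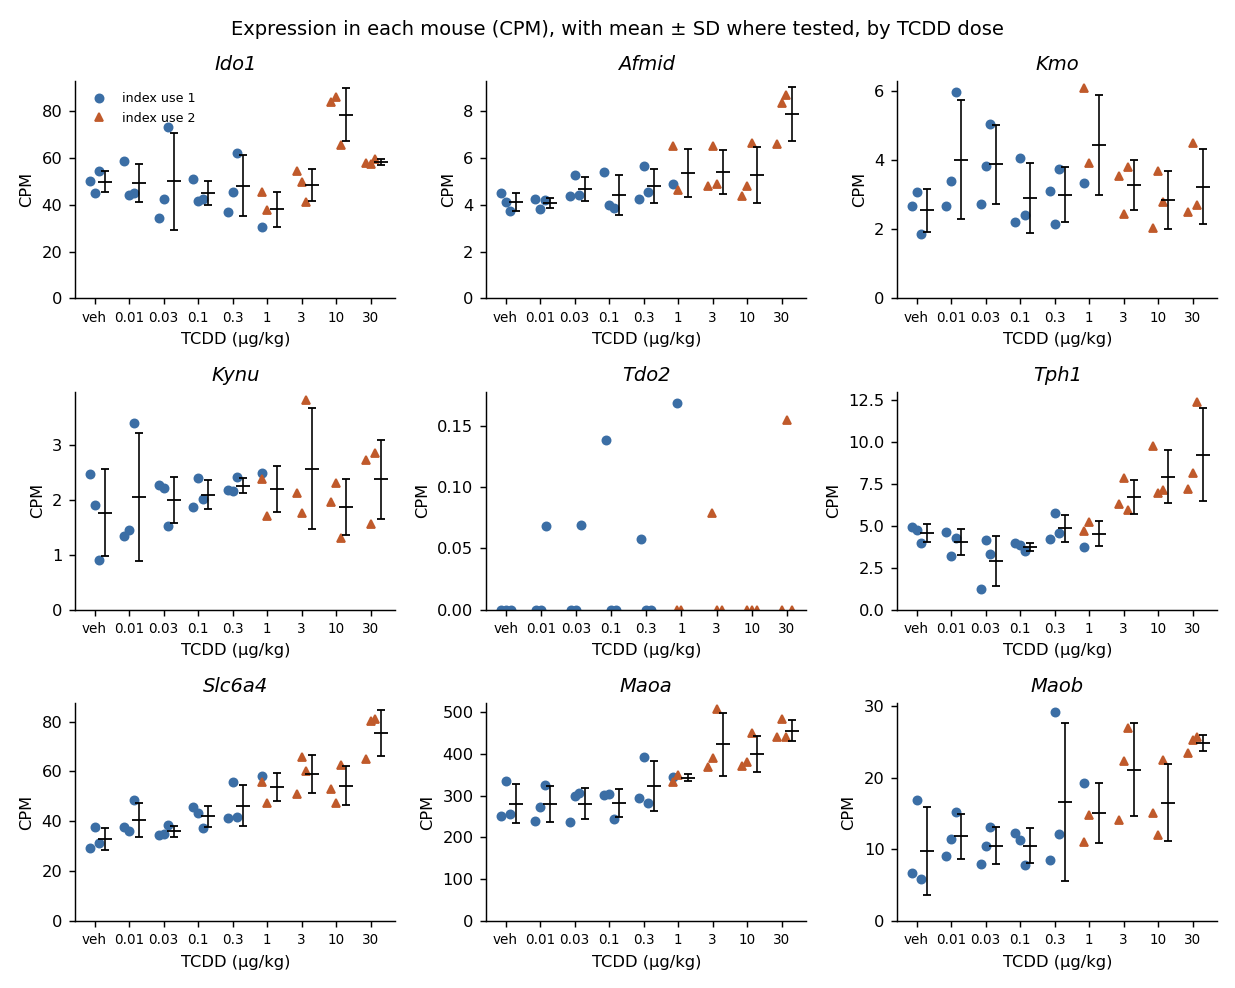
CPM in each of the 27 mice (y axes, linear from 0) against TCDD dose (x axes, veh = vehicle) for the 9 members, with circles for the first and triangles for the second use of the library indexes, and mean ± SD over 3 mice beside them for the 8 genes tested. *Slc6a4* spans 29.4 to 37.6 CPM without TCDD and 65.0 to 81.2 CPM after 30 µg/kg, with no overlap, while *Kmo* and *Kynu* overlap at every dose except *Kmo* at 1 µg/kg.

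*Tph1* (ENSMUSG00000040046, chromosome 7 of GRCm38, 46644641 to 46672537, - strand) encodes the enzyme that commits tryptophan to serotonin. Vehicle mice 2, 3 and 4 had 4.93, 4.77 and 3.95 CPM, from 57 to 70 reads each. Mice 50, 51 and 52 at 3 µg/kg had 6.29, 7.83 and 5.94 CPM, mice 57, 58 and 59 at 10 µg/kg had 9.72, 6.93 and 7.10 CPM, and mice 65, 67 and 68 at 30 µg/kg had 7.16, 8.12 and 12.4 CPM. All 9 mice at 3 µg/kg and above thus lay above every vehicle mouse, and mouse 68 was the highest of all 27. The log2 fold change was 0.56 (SE 0.27, adjusted p = 0.363, edgeR) at 3 µg/kg, 0.80 (SE 0.27, adjusted p = 0.101) at 10 µg/kg and 1.02 (SE 0.27, adjusted p = 0.0104) at 30 µg/kg, of which the last was called. Each of these 3 comparisons had an exact two-sided permutation p of 0.1, the smallest that 3 mice against 3 allow. Every dose below 3 µg/kg overlapped vehicle, with the lowest value in mouse 17 at 0.03 µg/kg (1.25 CPM, 16 reads). Without mouse 68, or without vehicle mouse 4, the call at 30 µg/kg was lost (adjusted p up to 0.0924, edgeR).

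Enteroendocrine markers were also higher at the top doses. The summed level of 8 such markers was 94.4 to 102 CPM without TCDD. It was 81.8 to 112 CPM with 1 µg/kg, 106 to 134 with 3 µg/kg, 120 to 151 with 10 µg/kg and 181 to 198 CPM with 30 µg/kg, and no marker was at 0. At 30 µg/kg 5 of the 8 were induced and 0 repressed, beside 5.42% and 3.98% of all genes. The other 3 were not called, and 7 of the 8 had a positive log2 fold change. Those induced were the granins *Chga* (log2 fold change 1.10, SE 0.23) and *Chgb* (1.19, SE 0.17), whose proteins pack hormone granules, and the transcription factors *Lmx1a* (1.23, SE 0.37), *Neurod1* (0.88, SE 0.29) and *Pax6* (1.09, SE 0.26). *Chgb* also passed at 10 µg/kg (0.66, SE 0.17). *Slc18a1*, the vesicular monoamine transporter that loads serotonin into granules, had all 3 mice above vehicle at 30 µg/kg but a log2 fold change of 0.51 (SE 0.14, adjusted p = 0.0131, edgeR), under the 1.5-fold limit. *Neurod1* lost its call without mouse 65 (0.81, adjusted p = 0.0657, edgeR). Markers of other cell types moved too. The summed level of 5 goblet cell markers was 20719.5 to 23431.4 CPM without TCDD and 29119.0 to 31760.3 CPM after 30 µg/kg, without overlap, and all 5 had a called upward slope (13.4% of all genes), with 0 past both limits at 30 µg/kg by edgeR (4 at an unadjusted p under 0.05). Plasma and B cell markers were lower, with a sum of 1379.5 to 1910.8 CPM without TCDD and 316 to 726 CPM after 30 µg/kg. Of these 4 markers, 3 were repressed at 10 and at 30 µg/kg, beside 0.771% and 3.98% of all genes. The part of a change in the numbers of these cells in the *Tph1* values was not tested.

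**Figure D3:**
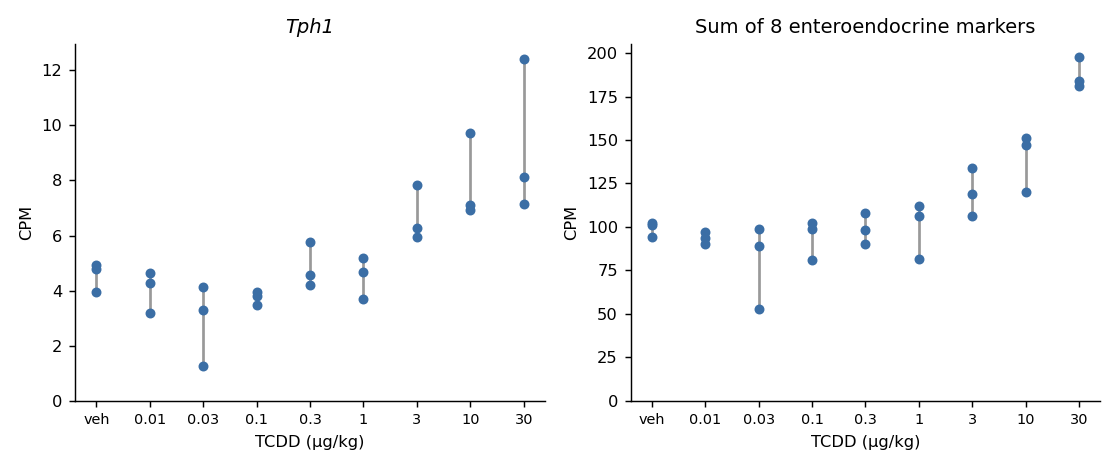
CPM of *Tph1* (left) and summed CPM of 8 enteroendocrine markers (right) against TCDD dose, where points are the 3 mice of each group and the vertical line spans them. Both overlap vehicle up to 1 µg/kg and are highest at 30 µg/kg, where the marker sum of 181 to 198 CPM lies clear of the 94.4 to 102 CPM of vehicle mice.

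Over the 27 mice, the genes whose log2 CPM ran closest to *Tph1* were *Nts* (Pearson r = 0.903), *Pyy* (r = 0.9) and *Adgrg4* (r = 0.893). *Nts* and *Pyy* encode neurotensin and peptide YY, hormones of distal enteroendocrine cells. Their log2 fold changes at 30 µg/kg were 1.09 (SE 0.28) for *Nts*, 1.01 (SE 0.27) for *Pyy* and 1.55 (SE 0.32) for *Adgrg4*, and all 3 passed both limits. The 27 points share the dose groups and the library depth, so these r values are a description of likeness. Taken as deviations of log2 CPM from the mean of each dose, r with *Tph1* was 0.891 for *Pyy*, 0.82 for *Nts* and 0.626 for *Adgrg4*. These genes were picked for their likeness, so no p is given.

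The 250 bases upstream of annotated start sites (RefSeq, GRCm38.p6) are shown for the serotonin genes whose windows were at hand, since each was called at 30 µg/kg. They were searched on both strands for the core of the dioxin response element, GCGTG or CACGC, to which ligand-bound AhR and its partner ARNT bind, and for 2 motifs of clock factors, the E-box CACGTG and the D-box TTATGTAA or TTACATAA. Capitals mark the GCGTG core. The upper *Tph1* window, chr7:46672538-46672787 on the - strand, holds 2 cores, whose first bases are 41 and 29 bases before its end. The second *Tph1* start site, with the window chr7:46667378-46667627 on the - strand, holds 0.
Tph1 start site 1: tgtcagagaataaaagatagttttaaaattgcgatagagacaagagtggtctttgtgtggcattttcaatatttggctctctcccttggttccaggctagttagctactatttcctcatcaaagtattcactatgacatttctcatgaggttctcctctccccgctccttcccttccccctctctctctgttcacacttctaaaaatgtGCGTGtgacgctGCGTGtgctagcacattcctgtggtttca
Tph1 start site 2: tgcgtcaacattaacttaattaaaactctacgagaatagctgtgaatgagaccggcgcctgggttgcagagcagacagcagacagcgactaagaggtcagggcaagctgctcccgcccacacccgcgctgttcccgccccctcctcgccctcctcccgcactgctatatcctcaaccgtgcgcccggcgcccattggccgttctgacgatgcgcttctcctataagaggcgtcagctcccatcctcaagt
The *Slc6a4* window, chr11:76998347-76998596 on the + strand, holds 1 core, 173 bases before its end, and the *Maoa* window, chrX:16619448-16619697 on the + strand, holds 0.
Slc6a4: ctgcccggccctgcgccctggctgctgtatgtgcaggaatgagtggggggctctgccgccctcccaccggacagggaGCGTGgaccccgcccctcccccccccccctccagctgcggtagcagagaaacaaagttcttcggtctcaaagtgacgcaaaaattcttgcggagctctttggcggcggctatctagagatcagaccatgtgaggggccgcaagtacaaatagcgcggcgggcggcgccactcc
Maoa: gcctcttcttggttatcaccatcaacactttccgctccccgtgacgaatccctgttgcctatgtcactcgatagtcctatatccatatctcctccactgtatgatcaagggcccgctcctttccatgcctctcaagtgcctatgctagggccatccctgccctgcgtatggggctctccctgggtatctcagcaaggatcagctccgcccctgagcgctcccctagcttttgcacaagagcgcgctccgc
None of the 4 windows holds the E-box or the D-box letters. The window of *Afmid*, a kynurenine pathway gene also called at 30 µg/kg, is not printed and holds 0 cores, 0 E-boxes and 0 D-boxes. Of 32817 upstream windows of this length in the RefSeq table, 28.1% hold the core, 6.02% the E-box and 0.817% the D-box, so a core in such a window is common. A match of letters is not a measured binding site.

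*Slc6a4* (ENSMUSG00000020838, chromosome 11, 76998603 to 77032340, + strand), the serotonin transporter, was the member that passed at the lowest dose. Vehicle mice had 29.4, 37.6 and 31.1 CPM, and a dose of 0.3 µg/kg gave 41.2, 55.8 and 41.7 CPM. Mice 41, 43 and 44 at 1 µg/kg had 58.3, 55.7 and 47.5 CPM, mice 50, 51 and 52 at 3 µg/kg had 50.9, 66.0 and 60.1 CPM, mice 57, 58 and 59 at 10 µg/kg had 52.9, 47.2 and 62.6 CPM, and mice 65, 67 and 68 at 30 µg/kg had 65.0, 80.4 and 81.2 CPM. From 0.3 µg/kg upward no treated mouse overlapped the vehicle mice, and the values from 1 to 10 µg/kg overlapped each other. The log2 fold change was 0.50 (SE 0.14, adjusted p = 0.355, edgeR) at 0.3 µg/kg, 0.72 (SE 0.14, adjusted p = 0.0172) at 1 µg/kg, 0.85 (SE 0.14, adjusted p = 0.00264) at 3 µg/kg, 0.73 (SE 0.14, adjusted p = 0.00455) at 10 µg/kg and 1.21 (SE 0.15, adjusted p = 6.43e-06) at 30 µg/kg. Between 3 and 30 µg/kg, where index use does not differ, the rise of 0.36 (SE 0.14) had an unadjusted p of 0.0194 and an adjusted p of 0.251 (edgeR). The slope was 0.132 log2 units per dose step (SE 0.014, adjusted p = 1.01e-07, edgeR). With index use as a covariate *Slc6a4* kept its call at 30 µg/kg (1.39, adjusted p = 0.00506, edgeR), and the other 4 members called at that dose did not (adjusted p of 0.133 to 0.579), with log2 fold changes of 0.72 for *Maoa*, 1.93 for *Maob*, 0.75 for *Afmid* and 0.60 for *Tph1*, in a fit where the 1 µg/kg group alone separates index use from dose.

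The call of *Slc6a4* at 1 µg/kg was lost on leaving out mouse 41 or 43 at that dose or vehicle mouse 2 or 4 (adjusted p up to 0.123, edgeR), with a log2 fold change between 0.65 and 0.69 in these 4 fits. At 3, 10 and 30 µg/kg it held with each of the mice compared left out in turn. Only mouse 41 of the 1 µg/kg group belongs to the first index use, as the vehicle mice do, and its 58.3 CPM was the highest of the 3. An antisense gene model, *Gm12343*, lies inside *Slc6a4*, and whether the reads were counted by strand is not given in the sources used here. The nearest patterns over the 27 mice were those of *Gpd1* (r = 0.945), *Glud1* (r = 0.943) and *Fam118a* (r = 0.943). *Gpd1* and *Glud1* encode glycerol-3-phosphate dehydrogenase and glutamate dehydrogenase, and at 30 µg/kg their log2 fold changes were 0.81 (SE 0.11) and 1.65 (SE 0.23).

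*Maoa* (ENSMUSG00000025037, chromosome X, 16619698 to 16687818, + strand) and *Maob* (ENSMUSG00000040147, chromosome X, 16709282 to 16817366, - strand) are neighbours that meet tail to tail without overlap. MAOA prefers serotonin and noradrenaline as substrates, and MAOB phenylethylamine. *Maoa* had 252, 335 and 257 CPM in vehicle mice 2, 3 and 4. The 3 µg/kg group had 369, 391 and 508 CPM, the 10 µg/kg group 372, 380 and 451 CPM and the 30 µg/kg group 441, 485 and 442 CPM. All 9 mice at 3 µg/kg and above exceeded the highest vehicle mouse, mouse 3, and mouse 52 at 3 µg/kg was the highest of the 27. The log2 fold change was 0.59 (SE 0.15, adjusted p = 0.0400, edgeR) at 3 µg/kg, 0.51 (SE 0.15, adjusted p = 0.0528) at 10 µg/kg and 0.70 (SE 0.15, adjusted p = 0.00225) at 30 µg/kg. The call at 3 µg/kg rested on single mice, with an adjusted p of up to 0.267 (edgeR) on leaving out vehicle mouse 2 or 4 or mouse 51 or 52. Without vehicle mouse 3 the value at 10 µg/kg was 0.66 and was called (adjusted p = 0.0251, edgeR). Of the 50-base stretches of *Maoa* transcripts, 3.98% also occur in other genes.

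*Maob* was expressed at a lower level and varied more. Vehicle mice 2, 3 and 4 had 6.62, 16.9 and 5.81 CPM, so that mouse 3 alone carried 230 of the reads against 94 and 84 in the other two. Mice 65, 67 and 68 at 30 µg/kg had 23.5, 25.3 and 25.6 CPM, a narrow group that lay above all vehicle mice. The 3 µg/kg group had 14.1, 22.3 and 26.9 CPM, the 10 µg/kg group 15, 12.0 and 22.4 CPM, and both overlapped vehicle mouse 3. The log2 fold change was 1.12 (SE 0.39, adjusted p = 0.169, edgeR) at 3 µg/kg, 0.75 (SE 0.40, adjusted p = 0.341) at 10 µg/kg and 1.35 (SE 0.39, adjusted p = 0.0206) at 30 µg/kg. With vehicle mouse 3 left out the value at 3 µg/kg was 1.77 and was called (adjusted p = 0.0313, edgeR), and at 30 µg/kg it was 1.99. Without vehicle mouse 2 or 4 or mouse 67 or 68, *Maob* lost its call at 30 µg/kg (adjusted p up to 0.119, edgeR). The single highest value of the study, 29.1 CPM, was in mouse 35 at 0.3 µg/kg, against 8.5 and 12.1 CPM in its companions.

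The 3 genes of serotonin uptake and breakdown also varied together among mice given the same dose. Each gene's log2 CPM was taken as a deviation from the mean of its dose, and all 28 pairs of the 8 members were compared by permuting mice within doses 100000 times, with Benjamini-Hochberg adjustment over the 28 pairs. *Maoa* and *Maob* had r = 0.866 and rho = 0.838 (adjusted permutation p = 0.00196 for each). Without the 2 mice farthest from the median, r was 0.842. *Slc6a4* and *Maob* had r = 0.793 and rho = 0.763 (adjusted permutation p = 0.00434 and 0.00504, r = 0.746 without 2 mice), and *Slc6a4* and *Maoa* r = 0.713 and rho = 0.640 (adjusted permutation p = 0.0155 and 0.0243, r = 0.622 without 2 mice). *Afmid* and *Slc6a4* followed with r = 0.613 and rho = 0.651 (adjusted permutation p = 0.0383 and 0.0276, r = 0.554 without 2 mice). The other 24 pairs did not pass, among them *Tph1* and *Slc6a4* with r = 0.277 and rho = 0.387 (adjusted permutation p = 0.393 and 0.355). Varying together within a dose was not particular to these genes. Taken as the same deviations, *Glud1*, *Fam118a* and *Gpd1* had r = 0.841, 0.828 and 0.731 with *Slc6a4*, and *Glud1* had r = 0.8 with *Maoa*. They were picked for their likeness over the 27 mice, so no p is given. Mice were housed 4 per cage according to the methods, but the cage of each mouse is not in the labels used here, and the pairs share genes.

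**Figure D4:**
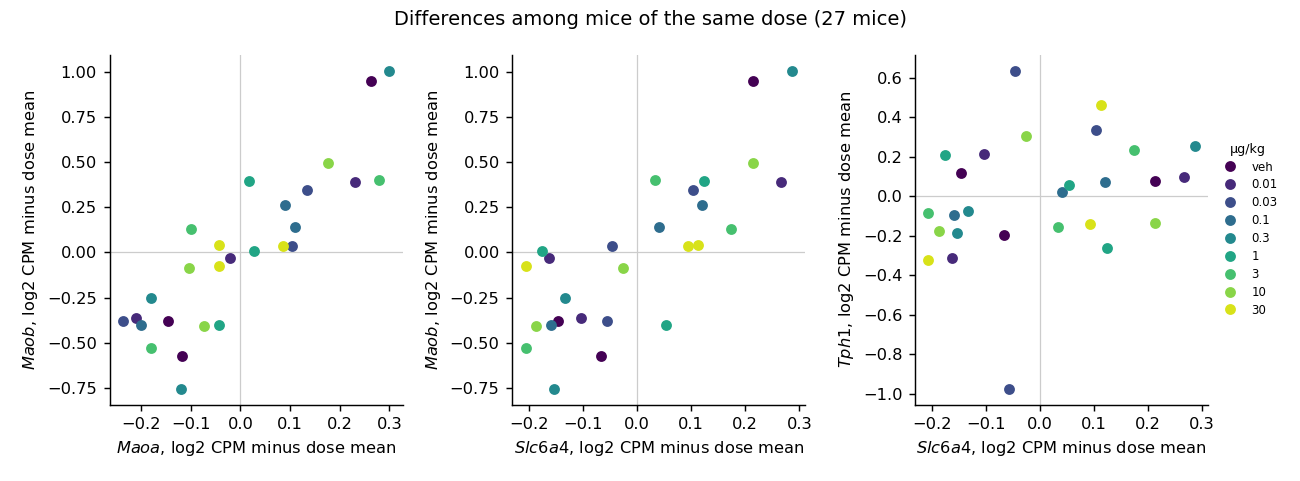
Deviation of log2 CPM from the dose mean in each of 27 mice for *Maoa* and *Maob* (left), *Slc6a4* and *Maob* (middle) and *Slc6a4* and *Tph1* (right), coloured by dose in µg/kg. The first 2 panels rise along the diagonal (r = 0.866 and 0.793) and the third is scattered (r = 0.277).

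*Maob* was itself the third nearest pattern to *Maoa* over the 27 mice (r = 0.9), after *Glud1* (r = 0.920) and the clock gene *Per2* (r = 0.9). The nearest to *Maob* were *Slc7a8* (r = 0.918), a transporter of neutral amino acids, *Slc5a4a* (r = 0.911), a sugar-transporter relative, and *Maoa*. At 30 µg/kg the log2 fold change of *Per2* was 2.74 (SE 0.26), that of *Slc7a8* 1.10 (SE 0.33) and that of *Slc5a4a* 3.63 (SE 0.61). As deviations from dose means, r was 0.696 for *Per2* with *Maoa*, and 0.847 for *Slc7a8* and 0.854 for *Slc5a4a* with *Maob*.

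Among the kynurenine pathway members, *Afmid* alone was induced. *Afmid* (ENSMUSG00000017718, chromosome 11, 117825924 to 117839908, + strand) encodes kynurenine formamidase. Vehicle mice had 4.51, 4.11 and 3.74 CPM, the 3 µg/kg group 4.80, 6.51 and 4.91 CPM, the 10 µg/kg group 4.39, 4.82 and 6.63 CPM and the 30 µg/kg group 6.59, 8.35 and 8.71 CPM. Mice at 1, 3 and 30 µg/kg lay clear of the vehicle mice, and 1 mouse at 10 µg/kg lay among them. The log2 fold change was 0.37 (SE 0.19, adjusted p = 0.389, edgeR) at 1 µg/kg, 0.39 (SE 0.19, adjusted p = 0.377) at 3 µg/kg, 0.36 (SE 0.19, adjusted p = 0.361) at 10 µg/kg and 0.93 (SE 0.19, adjusted p = 0.00162) at 30 µg/kg. Against 3 µg/kg the difference at 30 µg/kg was 0.54 (SE 0.19, adjusted p = 0.170, edgeR) and was called once mouse 65 was left out (0.66, adjusted p = 0.0457).

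The *Afmid* value is uncertain because the gene shares sequence. Of the 50-base stretches of its transcripts 41.3% also occur in *Gm20708*, a read-through model on the same strand, *Tk1*, which overlaps it on the other strand, or *Zfp444*, and reads that fit more than 1 gene may have been left out of the counts. *Gm20708* itself had 0 to 7 reads per mouse, and *Tk1*, thymidine kinase, ranged from 12.5 to 14.7 CPM without TCDD and from 11.5 to 17.6 CPM after 30 µg/kg (log2 fold change 0.02, SE 0.20, adjusted p = 0.966, edgeR). The nearest patterns to *Afmid* were *Aplp2* (r = 0.852), *Crat* (r = 0.848), a carnitine acetyltransferase, and *Guca2b* (r = 0.837), which encodes uroguanylin. *Crat* and *Guca2b* had log2 fold changes of 0.75 (SE 0.14) and 1.24 (SE 0.27) at 30 µg/kg, and *Aplp2*, at 0.33 (SE 0.08), stayed under the fold limit.

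*Ido1* (ENSMUSG00000031551, chromosome 8, 24584136 to 24597009, - strand) encodes the enzyme of the first step. Vehicle mice had 50.3, 45.1 and 54.2 CPM and the 1 µg/kg group 30.7, 45.6 and 37.7 CPM. The 10 µg/kg group had 83.9, 86.2 and 65.5 CPM and the 30 µg/kg group 57.7, 57.2 and 59.6 CPM. The gene thus peaked at 10 µg/kg, where all 3 mice were above vehicle, and the 30 µg/kg mice stood only slightly above it. The log2 fold change was -0.40 (SE 0.21, adjusted p = 0.409, edgeR) at 1 µg/kg, 0.65 (SE 0.21, adjusted p = 0.0872) at 10 µg/kg and 0.22 (SE 0.21, adjusted p = 0.514) at 30 µg/kg. The difference among the 9 groups passed (adjusted p = 0.0491, edgeR), whereas the slope over dose did not (adjusted p = 0.138). DESeq2 and an edgeR fit of the 6 mice alone called *Ido1* at 10 µg/kg, the latter with an adjusted p of 0.0192.

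Interferon-gamma is the best-known inducer of *Ido1*. Of 10 interferon-gamma response genes tested, edgeR called 0 at 10 µg/kg (0 also at an unadjusted p under 0.05), with a median log2 fold change of -0.11. The slope over dose was called downward for 6 of the 10, beside 2135 of all 16741 genes. At 30 µg/kg the median was -0.66 and 0 of the 10 had a positive log2 fold change. At that dose 9 had an unadjusted p under 0.05 (edgeR), and 3 were repressed, beside 3.98% of all genes. Those were the chemokine *Cxcl9* (-1.11, SE 0.30), the GTPase *Igtp* (-1.11, SE 0.27) and the cytokine-signalling inhibitor *Socs1* (-1.58, SE 0.28). The summed level of mucosal mast cell markers was highest at 10 µg/kg, at 71.5 to 201 CPM against 35.0 to 59.2 CPM without TCDD and 46.9 to 78.8 CPM after 30 µg/kg. *Kit* was a large part of this sum and did not peak at 10 µg/kg. It had 24.9 to 31.1 CPM without TCDD, 38.0 to 52.3 CPM at 10 µg/kg and 45.3 to 48.5 CPM at 30 µg/kg. The marker sum was also above vehicle at 1 µg/kg, at 60.7 to 90.3 CPM, with 0 of 5 called by edgeR (3 at an unadjusted p under 0.05). At 10 µg/kg 3 of the 5 tested were called, beside 1.76% of all genes called higher. These were *Cpa3* (2.48, SE 0.69), *Fcer1a* (3.23, SE 0.91) and *Kit* (0.73, SE 0.16), and *Fcer1a* rested on 7 to 30 reads per mouse at that dose. At 30 µg/kg 1 was called, *Kit* (0.76), beside 5.42% of all genes, and *Cpa3* had a log2 fold change of 0.07. Macrophage and dendritic cell markers summed to 78.7 to 89.4 CPM without TCDD and to 49.0 to 64.7 CPM after 30 µg/kg, where *Itgam* alone of 6 was repressed (-1.78, SE 0.19). The part of interferon-gamma or of these cells in the *Ido1* values was not tested.

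*Kmo* and *Kynu* were not called at any dose. *Kmo* (ENSMUSG00000039783, chromosome 1, 175620381 to 175662116, + strand) ranged from 1.87 to 6.07 CPM over the 27 mice, and its log2 fold change at 30 µg/kg was 0.34 (SE 0.35, adjusted p = 0.550, edgeR). All 3 mice at 1 µg/kg lay above vehicle (0.79, SE 0.34, adjusted p = 0.300, edgeR). *Kynu* (ENSMUSG00000026866, chromosome 2, 43555329 to 43682715, + strand) ranged from 0.9 to 3.81 CPM, from 13 to 59 reads per mouse, with 0.43 (SE 0.38, adjusted p = 0.464, edgeR) at 30 µg/kg. *Kmo* overlaps *Fh1* on the other strand. With standard errors of 0.34 to 0.38, a change of 1.5-fold in either gene lay within 2 standard errors.

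*Tdo2* (ENSMUSG00000028011, chromosome 3, 81957090 to 81976202, - strand), the tryptophan dioxygenase of liver, was close to undetected. In all, 11 reads fell on it in 7 of the 27 mice, at most 3 in 1 mouse, and the 3 vehicle mice had 0. A count of 0 allows a level of up to 3 reads, which is 0.175 to 0.245 CPM at these depths (counting error only), so no fold change was computed.

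The levels of the members differed far more between genes than between doses. Scaled by exon length, the vehicle means were 67.5 CPM per kb for *Maoa*, 27.3 for *Ido1*, 7.21 for *Slc6a4*, 3.50 for *Maob*, 1.16 for *Afmid*, 0.737 for *Tph1*, 0.538 for *Kmo* and 0.286 for *Kynu*. The ranges of neighbours in this order did not overlap among the first 6 genes, whereas *Tph1* (0.639 to 0.798) and *Kmo* (0.396 to 0.652), and *Kmo* and *Kynu* (0.146 to 0.401), overlapped. At 30 µg/kg the means were 109 CPM per kb for *Maoa*, 31.9 for *Ido1*, 16.7 for *Slc6a4*, 8.89 for *Maob*, 2.23 for *Afmid* and 1.49 for *Tph1*, in the same order.

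Of 12 further kynurenine pathway genes, 8 could be tested. At 30 µg/kg 1 was induced and 1 repressed, beside 5.42% and 3.98% of all genes. *Kyat1*, a kynurenine aminotransferase, had 14.2 to 18.2 CPM without TCDD and, in order of size, 16.0, 43.2 and 55.8 CPM after 30 µg/kg (log2 fold change 1.23, SE 0.32), with mouse 65 inside the vehicle range. *Got2*, a mitochondrial aminotransferase, fell from 31.2 to 39.2 CPM to 17.3 to 29.6 CPM without overlap (-0.63, SE 0.15). Against vehicle, the calls in this list came at 30 µg/kg alone. The slope over dose was called for *Kyat1*, *Got2* and, upward, *Qprt* (0.124 log2 units per step, SE 0.047, adjusted p = 0.0491, edgeR), which turns quinolinate toward NAD, and any difference among the groups for *Kyat1*.

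Of 13 further genes of serotonin synthesis, storage and breakdown, 9 were tested. Of these, 2 were induced, both at 30 µg/kg alone, where 5.42% of all genes were called higher. *Slc22a3*, a low-affinity organic cation transporter that carries serotonin, went from 1.06 to 1.76 CPM in vehicle mice to 3.29 to 6.84 CPM (1.91, SE 0.45). *Sult1a1*, a phenol sulfotransferase, went from 0.880 to 1.48 CPM to 1.71 to 2.86 CPM (0.84, SE 0.28). The slope was called upward for *Slc22a3*, *Slc18a1* (0.073 log2 units per step, SE 0.012) and the aldehyde dehydrogenase *Aldh2* (0.033, SE 0.007). *Ddc*, which decarboxylates the TPH1 product to serotonin, differed among the 9 groups (adjusted p = 0.0245, edgeR), as did 9.53% of all genes. Its log2 fold change was 0.37 (SE 0.18) at 0.3 µg/kg, -0.43 (SE 0.18, adjusted p = 0.215, edgeR) at 10 µg/kg and -0.36 (SE 0.18, adjusted p = 0.179) at 30 µg/kg. It was not called at any of these doses and overlapped vehicle. Its slope of -0.056 log2 units per step (SE 0.023) was not called (adjusted p = 0.0666, edgeR). Among 13 serotonin receptors only 3 were expressed enough to be tested, and *Htr1d* was induced at 30 µg/kg (1.89, SE 0.57) on 9 to 40 reads per mouse, with mouse 65 inside the vehicle range. Of the 7 genes that make and recycle tetrahydrobiopterin, the cofactor of TPH1, edgeR called 0 at 30 µg/kg (3 at an unadjusted p under 0.05), with a median log2 fold change of -0.09.

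Of 8 genes that carry tryptophan or help its carriers, 7 were tested. At 30 µg/kg 3 were induced and 2 repressed, beside 5.42% and 3.98% of all genes. *Slc6a19*, the main apical transporter of neutral amino acids, had a log2 fold change of 0.96 (SE 0.27) but was uneven. It was at 755 CPM in mouse 65, 2540.1 CPM in mouse 67 and 1955.5 CPM in mouse 68, with 857 to 930 CPM in vehicle mice. *Slc16a10*, the basolateral exporter of aromatic amino acids, was likewise at 140 CPM in mouse 65 and at 314 and 299 CPM in mice 67 and 68 (0.89, SE 0.24), with 121 to 154 CPM in vehicle mice. *Slc7a8* rose without overlap (1.10, SE 0.33). *Slc6a14* fell from 48.1 to 162 CPM to 3.01, 3.71 and 40.5 CPM (-2.70, SE 0.82), and *Slc7a5* fell at 3 µg/kg (-0.96, SE 0.25) and 30 µg/kg (-0.91, SE 0.25), with an adjusted p at the limit (0.05, edgeR) at the lower dose. Without mouse 65 the log2 fold changes at 30 µg/kg were 1.60 for *Kyat1*, 2.33 for *Htr1d*, 1.32 for *Slc6a19* and 1.17 for *Slc16a10*, all called. *Sult1a1* (0.63, adjusted p = 0.141, edgeR) and *Slc6a14* (-2.20, adjusted p = 0.0642) lost their calls.

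Most of 11 clock genes also differed from vehicle in mice given TCDD at 1 µg/kg and above. At 1 µg/kg 5 of the 11 were induced and 2 repressed, beside 0.4% and 0.191% of all genes. At 30 µg/kg 7 were induced and 3 repressed, beside 5.42% and 3.98% of all genes, among them *Dbp* (log2 fold change 6.29, SE 0.98), *Per3* (4.09, SE 0.43) and *Arntl* (-2.60, SE 0.35). A clock score, the first principal component of these genes (78.8% of their variance), ranged from -3.654 to -3.201 without TCDD, from 0.45 to 2.421 in the 1 µg/kg group, from 2.257 to 3.344 in the 3 µg/kg group and from 3.841 to 4.312 in the 30 µg/kg group. Of 9 glucocorticoid-responsive genes, 8 were induced and 1 was repressed at 30 µg/kg, beside the same 5.42% and 3.98% of all genes. With the clock score as a covariate in edgeR, 0 members passed at 1, 3, 10 or 30 µg/kg (at an unadjusted p under 0.05, *Ido1* at 10 µg/kg), and the log2 fold change at 30 µg/kg was 0.48 for *Slc6a4*, -0.025 for *Maoa*, -0.599 for *Maob*, 0.99 for *Tph1* and 0.85 for *Afmid*. The score and the dose run so closely together that this fit leaves few genes called at all, 13 of 16741 at 30 µg/kg.

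At the low doses mouse 14 stood apart in the score. Mouse 14 at 0.01 µg/kg had a score of 1.994, against -3.462 and -2.876 in mice 9 and 11. Its *Slc6a4* was 48.4 CPM against 37.5 and 35.9 CPM, its *Maoa* 325 CPM against 240 and 274 CPM and its *Maob* 15.2 CPM against 8.97 and 11.4 CPM. *Kmo* (5.96 CPM against 2.66 and 3.40 CPM) and *Kynu* (3.39 CPM against 1.33 and 1.45 CPM) were also highest in mouse 14. Its *Tph1*, *Afmid* and *Ido1* lay between those of mice 9 and 11. Mouse 35 at 0.3 µg/kg, named here for its *Maob* value, had a score of -0.387, not far from the -1.083 of mouse 36, with -1.979 in mouse 33. In mouse 35 *Slc6a4* (55.8 CPM), *Maoa* (392 CPM), *Maob* (29.1 CPM), *Tph1* (5.77 CPM) and *Afmid* (5.64 CPM) were each the highest of that dose. *Kmo* and *Kynu* (each 2.15 CPM) were the lowest, and *Ido1* lay between the other mice. *Cyp1a1* was at or under 0.581 CPM in all mice at 0.01 µg/kg. The part of clock state in the members' values was not tested.

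**Figure D5:**
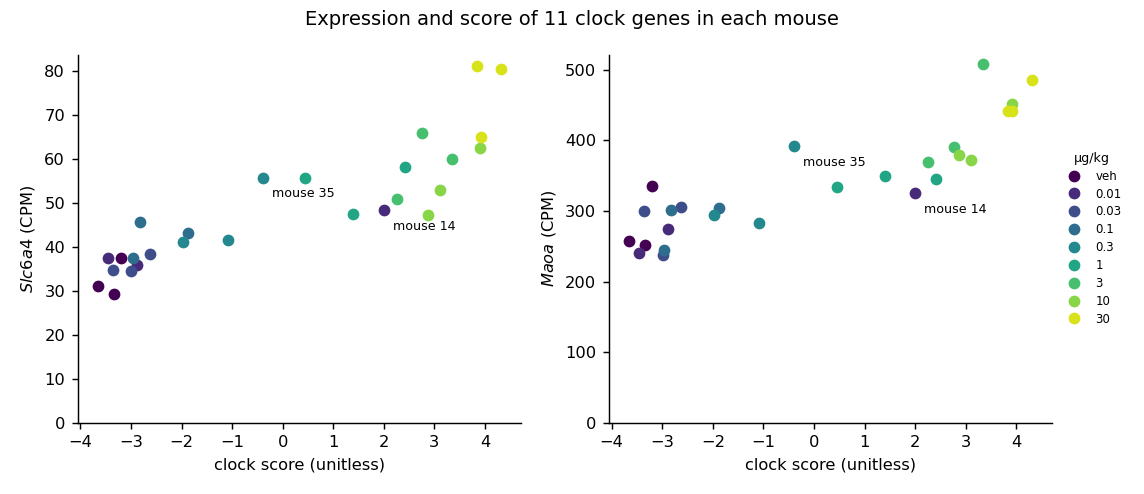
CPM of *Slc6a4* (left) and *Maoa* (right) against the clock score (x axis, first principal component of 11 clock genes, no unit) in each of 27 mice, coloured by dose in µg/kg. Mouse 14 at 0.01 µg/kg lies among the mice of 1 to 10 µg/kg in the left panel, with 48.4 CPM of *Slc6a4* and a score of 1.994, while its 325 CPM of *Maoa* lies within the vehicle range of 252 to 335 CPM.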

How the data were processed

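RNA-Seq libraries of ileal epithelium scrapings from 27 mice were analysed, 3 per group as the labels assign them. Per the labels and the methods, the authors checked reads with FastQC 0.11.3, trimmed adaptors with Trimmomatic 0.33, aligned to GRCm38 with TopHat2 2.1.0, converted files with SAMtools 1.2.0 and counted with HTSeq 0.6.1, and the deposited values are raw counts per Ensembl gene, without normalization. Counting options are not given in the sources used here. Rows of no gene stayed out: 44.48% to 49.52% of uniquely aligned reads matched no feature and 0.607% to 1.016% were ambiguous.

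Counts were fitted with edgeR 4.0.16 (R 4.3.3; filterByExpr, TMM, quasi-likelihood F test, 9 groups), and p-values were adjusted over 16741 genes. In simulated counts of 30 µg/kg against vehicle, changes were placed only in genes of higher mean count among these 16741. Recovery was 86 of 100 genes changed 2-fold and 97 of 100 changed 4-fold, and 4 calls were false. It was not measured for genes of few reads, such as *Kynu* (13 to 59 reads per mouse) and *Kmo* (26 to 88). Log2 CPM used a prior count of 2. Gene symbols and positions came from GENCODE M21 and matched 45229 of the 46078 identifiers. Pairs of mice of a dose were checked for duplicate libraries by chi-square, and none agreed within sampling noise (ratios of chi-square to degrees of freedom 7.65 to 83.08). Tests treat mice as independent, and cages are not in the labels used here.

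Named genes are the 9 members, *Cyp1a1*, called genes of the fixed lists and, per called member, the 3 genes of highest Pearson r. Exceptions named for context are *Ddc*, *Slc18a1*, *Aldh2*, *Qprt*, *Tk1* and *Gm20708*. The members and lists were chosen with earlier results of these data known. A gene of the tryptophan transport list is not reported here and was left out of its counts. Alternatives were DESeq2 1.42.0, other normalizations, filters and fold limits, the compared mice alone, index use or clock score as covariate, 1 index use alone, and each mouse left out. For the list genes, leaving out mouse 65 was chosen after seeing the data.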

Additional observations from a re-analysis of the deposited data

How the results depend on the processing

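Of 1368 comparisons of 80 results with an alternative, 1209 kept direction and side of the limit, 95 differed in sign with neither value called, 53 lost the call, 7 gained it and 4 reversed. At 30 µg/kg the 5 calls remained by DESeq2, upper-quartile normalization, no filter, at least 10 counts and no fold limit; library size alone, which shifted the median of all genes by -0.13 log2, gave 4, the 6 mice alone 3 (*Afmid*, *Slc6a4* and *Maoa*), index use as covariate 1 (*Slc6a4*) and clock score as covariate 0. At 10 µg/kg DESeq2, no filter and the 6 mice alone gave 2 (with *Ido1*), and each covariate 0. At 3 µg/kg upper-quartile normalization, library size alone and the 6 mice alone gave 1 (*Slc6a4*), and each covariate 0, as at 1 µg/kg. Any difference among groups was called for 0 members in the first index use, 1 (*Ido1*) in the second and 0 with each covariate. A slope was called for 0 in either index use, 1 (*Slc6a4*) with index use and 0 with clock score. Both covariates left few of all 16741 genes called. With index use 31, 6, 48 and 482 were called at 1, 3, 10 and 30 µg/kg, and 195 slopes. With clock score these numbers were 0, 0, 3, 13 and 6. The 6 mice alone gave 87, 344, 359 and 656 genes at the 4 doses. Apart from mouse 41, the first index use holds vehicle and the doses at which edgeR called 0 of all genes. The clock score reversed *Maoa* at 3 µg/kg (-0.019) and 30 µg/kg (-0.025), *Maob* at 30 µg/kg (-0.599) and the *Maob* slope (-0.012). The cause was not tested.

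With each mouse left out in turn, calls ranged from 0 to 1 at 1 µg/kg, 1 to 3 at 3 µg/kg, 1 to 2 at 10 µg/kg, 3 to 5 at 30 µg/kg, 0 to 1 for 30 against 3 µg/kg and 3 to 5 among the groups, while the 5 slopes were called each time. No paired analysis was possible because the labels give each mouse its own number and no number is shared between groups. Depth limits *Tdo2*, *Kynu*, *Kmo*, *Afmid* and *Tph1*, with at most 152 reads per mouse. No group of 3 mice was tested for single outlying mice.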
